A study of Homo sapiens with 36 samples.

Results

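The transcripts described here are the 8 mitochondrial tRNA transcripts whose sequence is read from the light-strand promoter of human mitochondrial DNA: MT-TQ, MT-TA, MT-TN, MT-TC, MT-TY, MT-TS1, MT-TE and MT-TP. They were chosen by a fixed list of Ensembl transcript IDs, and the list was drawn up with levels from these same libraries in view. All 8 IDs were found among the 223367 transcript rows of the deposited table, and all 8 passed a filter of at least 1 TPM in at least 3 libraries, as did 51052 transcripts in all. TPM divides the estimated reads of a transcript by its length and sets each library's total to 1000000. Levels of different transcripts are set side by side below on this per-length scale only, which is unstable for transcripts as short as these. Because the measured levels helped to choose the transcripts, their levels, differences and test calls are given below as a description.

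All libraries were made from HUES6 cells, a line of human embryonic stem cells that is long established, kept in FTDA medium. The groups were RBPMS knockout (KO) cells and unmodified (WT) cells, with 3 cultures of each genotype, and the treatment of every sample is labelled control. RBPMS is an RNA-binding protein, and its own transcripts were not analysed here because the table pairs no ID with a gene name, so the genotypes are those of the labels; the stem cell markers were not analysed here for the same reason. All cultures received cycloheximide, which holds ribosomes on mRNA, at 100 ng/ml for 5 min before polysome profiling. Each culture gave an Input sample and 5 gradient fractions named 40S, 80S, disome, Polysome1 and Polysome2, which makes 36 libraries in 12 groups of 3. The sample labelled Input2 was taken as the Input of KO replicate 3. Whether KO cultures came from 1 clone or several, and whether cultures of a genotype were grown apart, is not stated, so the spread between them may be technical. The same amount of RNA went into each library, which was built with a stranded mRNA kit and read as pairs of 75 nt. Values are therefore shares of each library, and fewer cells of a kind cannot be told apart from less RNA per cell.

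Human mitochondrial DNA is transcribed from both strands into long precursors. The light-strand promoter gives a precursor that carries the protein-coding sequence of ND6 and these tRNAs, while the remaining tRNAs, both rRNAs and the other mRNAs lie on the heavy-strand transcript. Mitochondrial RNase P cuts the precursor at the 5′ end of a tRNA and ELAC2 at the 3′ end, a CCA tail is added, and much of the remaining light-strand RNA is degraded by the mitochondrial degradosome of SUPV3L1 and PNPase. The mature tRNAs bring their amino acids to the ribosomes of the mitochondrion, which translate mitochondrial mRNAs and are separate from the cytoplasmic ribosomes that a polysome gradient resolves. RefSeq's gene table for GRCh38.p14, used for names and gene order only, matched all 8 by symbol. MT-TA (tRNA for alanine), MT-TN (asparagine), MT-TC (cysteine) and MT-TY (tyrosine) stand side by side between the tryptophan tRNA gene and COX1, and the genes of MT-TC and MT-TY overlap. MT-TQ (glutamine) overlaps the isoleucine tRNA gene, MT-TS1 (the serine tRNA for UCN codons) stands between COX1 and the aspartate tRNA gene, MT-TE (glutamate) between ND6 and CYTB, and MT-TP (proline) next to the threonine tRNA gene. These transcripts are comparable in length to a sequencing read, so a small change in estimated reads moves their TPM a great deal. The strand setting used in quantification is not stated in the sources, and reads from the opposite strand cannot be told apart from those of the tRNAs.

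The libraries differed in make-up between cultures. KO replicate 1 held 9867 to 21548 transcripts at 1 TPM or more across its 6 libraries (median 18537). KO replicate 2 held 14189 to 21914 (median 20809) and KO replicate 3 held 16331 to 31380 (median 30722). WT replicates 1, 2 and 3 held 14712 to 36186 (median 30682), 15949 to 34899 (median 28659) and 8956 to 38389 (median 27627). The library with the fewest of all was WT 40S replicate 3, at 8956. The summed TPM of the 92 ERCC spike-in controls had medians of 496, 394 and 86.4 in KO replicates 1, 2 and 3, against 28.7, 23.3 and 19.1 in WT replicates 1, 2 and 3. KO replicates 1 and 2 thus had the fewest transcripts and the highest spike-in shares by median, and the part of either in the levels of the tRNA transcripts was not tested. Among single libraries, KO disome replicate 1 stood apart with a low summed tRNA level and WT 40S replicate 3 with a high one, and the main values they enter are given without them too. Depth is unknown, because TPM keeps no record of it.

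The 8 tRNA transcripts together took a large part of the total TPM of some KO libraries. Because TPM divides by length, these are not shares of reads, which are unknown. In Input they summed to 24.3%, 5.42% and 1.72% of all TPM in KO replicates 1, 2 and 3, against 0.483%, 1.01% and 0.959% in WT replicates 1, 2 and 3. All 3 KO Input libraries lay above all 3 WT Input libraries, and the mean sums were 10.5% ± 12.1 in KO and 0.816% ± 0.289 in WT (SD, n = 3 each). The KO spread was larger than the KO mean: KO replicate 1 had 29.8-fold the WT mean, KO replicate 2 had 6.64-fold and KO replicate 3 had 2.11-fold. In Polysome2 the sums were 10.8%, 7.29% and 0.178% in KO, against 0.0556%, 0.0401% and 0.0936% in WT. KO replicates 1 and 2 had 171-fold and 116-fold the WT Polysome2 mean, and KO replicate 3 had 2.82-fold. In Polysome1 the sums were 9.53%, 5.21% and 0.497% in KO, against 0.101%, 0.154% and 0.145% in WT, again without overlap.

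In the 3 other fractions the genotypes overlapped. The 40S sums were 22.0%, 16.5% and 5.10% in KO, against 2.64%, 1.31% and 22.3% in WT, where WT replicate 3 was the highest of all 6. In 80S the sums were 8.21%, 5.60% and 1.56% in KO, against 2.30%, 0.436% and 0.848% in WT, and only KO replicate 3 lay within the WT range. In disome the sums were 0.448%, 7.34% and 1.54% in KO, against 0.222%, 0.314% and 0.886% in WT, and here KO replicate 1 lay within the WT range. KO replicate 2 was the highest disome library, at 15.5-fold the WT mean. The mean log2 difference of the sum, KO minus WT, was 2.98, 1.53, 2.13, 2.12, 4.47 and 5.345 for Input, 40S, 80S, disome, Polysome1 and Polysome2, all above 0 on the TPM scale, but it was -0.0999, -1.496, -0.786, -0.244, 0.195 and -0.0032 once each library was scaled to its ERCC total. Without WT 40S replicate 3 the 40S difference of the sum was 2.72, and without KO disome replicate 1 the disome difference was 3.09, both on the TPM scale. That scaling also moved the median log2 difference of all 51052 tested transcripts, to -1.37, -0.08, -1.43, -2.02, -3.01 and -3.41 for the 6 fractions in that order, where the TPM scale gave -0.51 to 0. With ERCC scaling the median of the 8 tRNA transcripts was 0.56, -1.34, -0.26, 0.19, 0.31 and 0.23, above the median of all transcripts in every fraction but 40S.

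**Figure D1:**
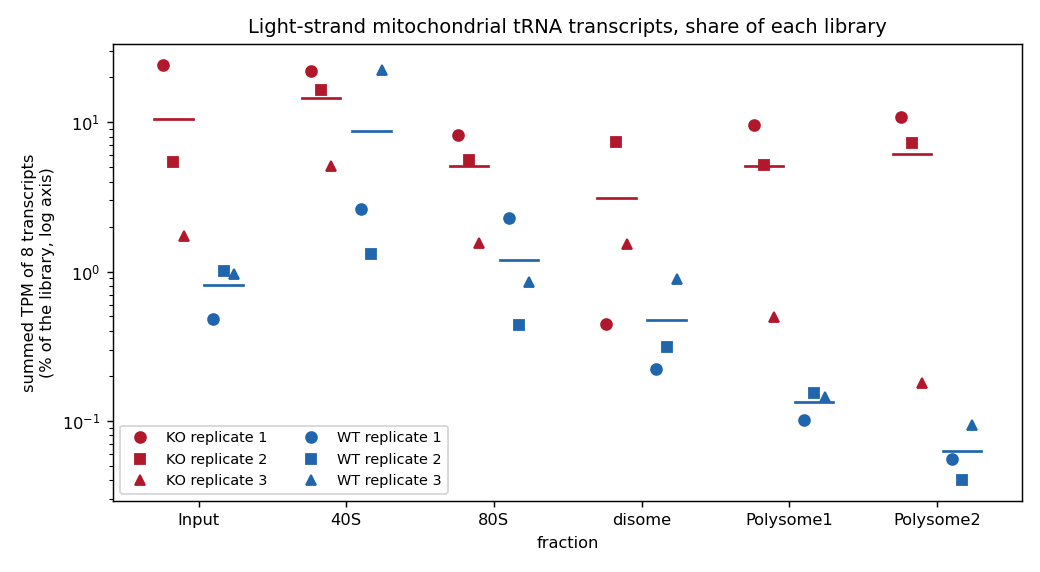
Summed TPM of the 8 light-strand mitochondrial tRNA transcripts as a percent of the total TPM of each library, not of its reads (vertical log axis), by fraction. KO is in red to the left of WT in blue. Each symbol is 1 library, its shape gives the replicate number, and lines are means of 3. KO replicates 1 and 2 sit above the WT libraries except in 40S, where WT replicate 3 reached 22.3%, and in disome, where KO replicate 1 fell to 0.448%. Values are on the TPM scale. With ERCC scaling the mean log2 difference ran from -1.496 in 40S to 0.195 in Polysome1, and was -0.0032 in Polysome2.

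The 4 tRNAs of the cluster between the tryptophan tRNA gene and COX1 varied together over the 36 libraries, with Pearson r of log2(TPM + 1) between 0.934 and 0.982 for their pairs. Pairs with a member outside the cluster ran from 0.666 (MT-TQ with MT-TP) to 0.967 (MT-TY with MT-TE), so values this high were not particular to the cluster. In Input, MT-TC (ENST00000387405.1), the cysteine tRNA, had 50829.8, 10281 and 1479 TPM in KO, against 343, 752 and 446 TPM in WT, where values are listed for replicates 1, 2 and 3, here and below. All KO Input values of MT-TC lay above all WT values, and the log2 difference was 4.23 ± 1.501 (SE of the limma fit on log2(TPM + 1), KO minus WT, here and below). In Polysome1, MT-TC had 33288, 13958 and 1072 TPM in KO, against 83.8, 294 and 286 TPM in WT. In Polysome2, it had 36824, 22741 and 346 TPM in KO, against 117, 96.4 and 155 TPM in WT. Both polysome fractions separated the genotypes without overlap, with differences of 5.36 ± 1.501 in Polysome1 and 5.77 ± 1.501 in Polysome2, and KO replicate 3 was the lowest KO library by far in each. In 80S, MT-TC had 21336, 21026 and 2368 TPM in KO, against 1644, 384 and 941 TPM in WT. In disome, it had 1543, 18468 and 2866 TPM in KO, against 255, 680.4 and 1199 TPM in WT. KO stood above WT in all 3 libraries of both fractions, although KO replicate 1 had the lowest KO disome value. In 40S, MT-TC had 48194, 58253 and 4840.3 TPM in KO, against 2255, 676 and 19447 TPM in WT, and WT replicate 3 there was above KO replicate 3.

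MT-TN (ENST00000387400.1), the asparagine tRNA, followed MT-TC closely: across the 36 libraries the Pearson r of their log2(TPM + 1) values was 0.982, the highest of any pair of members. In Input, MT-TN had 28598, 15364 and 2433 TPM in KO, against 492, 1132 and 974 TPM in WT, a difference of 3.65 ± 1.16 without overlap. In Polysome2, MT-TN had 17368, 14434 and 415 TPM in KO, against 106, 121 and 196 TPM in WT, a difference of 5.10 ± 1.16. The lowest KO Polysome2 value of MT-TN, in replicate 3, was again above the highest WT value. In Polysome1, MT-TN ranged over 1110.2 to 16173 TPM in KO, against 183 to 389.7 TPM in WT. Its 80S range was 2403 to 9338 TPM in KO, against 423 to 1037 TPM in WT, and its disome range was 1248 to 11551 TPM in KO, against 179 to 995 TPM in WT. None of these 3 fractions showed an overlap between KO and WT for MT-TN. The 40S range of MT-TN was 7924 to 29695 TPM in KO, against 1158 to 12434 TPM in WT, and here the ranges crossed because of WT replicate 3.

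MT-TA (ENST00000387392.1), the alanine tRNA, had a lower mean TPM than MT-TN and MT-TC (1625, against 6369 and 10549 over the 36 libraries) and a smaller spread of log2 levels (SD 2.29, against 2.50 and 2.92). In Input, MT-TA had 9575, 2713 and 1106 TPM in KO, against 320.4, 485 and 546 TPM in WT. In Polysome2, it had 3318, 2830.3 and 167 TPM in KO, against 24.2, 40.3 and 105 TPM in WT. The genotypes did not overlap in either fraction, and the differences were 2.80 ± 1.02 in Input and 4.602 ± 1.02 in Polysome2. Polysome1 gave MT-TA values of 2524, 2551 and 332 TPM in KO, against 56.5, 71.7 and 122 TPM in WT, with a difference of 4.01 ± 1.02. The 40S range of MT-TA was 3093 to 7485 TPM in KO, against 609 to 5013 TPM in WT. Its 80S range was 838 to 1646 TPM in KO, against 168 to 532 TPM in WT, and its disome range was 267 to 3297 TPM in KO, against 85.2 to 269 TPM in WT. Only 80S of these separated the genotypes, and in disome KO replicate 1 fell just below WT replicate 3.

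In Input, MT-TY (ENST00000387409.1), the tyrosine tRNA, had 13666, 1446 and 489.7 TPM in KO, against 165, 334 and 221 TPM in WT. The KO libraries all lay above WT there, KO replicate 3 closest to it, and the difference was 3.21 ± 1.54. In Polysome1, MT-TY had 7241, 2963 and 214 TPM in KO, against 47.0, 75.1 and 56.4 TPM in WT. In Polysome2, it had 7898, 5149.8 and 97.7 TPM in KO, against 54.2, 24.8 and 41.2 TPM in WT. Each polysome fraction separated the genotypes, with differences of 4.81 ± 1.54 and 5.34 ± 1.54. The ranges of MT-TY crossed in the 3 remaining fractions. In 40S it ranged over 687 to 11646 TPM in KO, against 238 to 12281 TPM in WT. In 80S the range was 628 to 6865 TPM in KO, against 179 to 857 TPM in WT, and in disome it was 231 to 4836 TPM in KO, against 142 to 297 TPM in WT.

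MT-TQ (ENST00000387372.1), the glutamine tRNA, was the lowest of the 8 in all 36 libraries. In Input it had 936, 75.9 and 19.6 TPM in KO, against 5.10 and 7.86 TPM in WT replicates 2 and 3, while WT replicate 1 was listed at 0. All 3 KO libraries were above WT, but KO replicate 1 held most of the KO level. In Polysome1 it had 211, 156 and 34.9 TPM in KO and was listed at 0 in all 3 WT libraries, so no fold is given. A listed 0 is an estimate and not a count, and no depth is known against which to read it. In Polysome2 it had 693, 408 and 3.03 TPM in KO, against 6.84 and 8.62 TPM in WT replicates 2 and 3, with WT replicate 1 listed at 0. KO replicate 3 lay inside the WT range there, so MT-TQ was the member whose genotypes overlapped in Polysome2. In 40S, MT-TQ had 434, 511 and 9.88 TPM in KO, against 23.1, 12.6 and 969 TPM in WT, and WT replicate 3 gave its highest value of the 36 libraries. In 80S, MT-TQ had 353, 366 and 44.4 TPM in KO, against 55.8, 29.2 and 20.2 TPM in WT. In disome, it had 7.10, 329 and 51.7 TPM in KO, against 12.2, 9.07 and 24.2 TPM in WT. The genotypes overlapped in all 3 of these fractions.

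MT-TS1 (ENST00000387416.2), the serine tRNA next to COX1, had both the highest single value of any member and 1 of the widest spreads. In Input, it had 99531, 6667 and 793 TPM in KO, against 434, 1035 and 623 TPM in WT. KO replicate 1 stood far above the 5 other libraries, and KO replicate 3 lay below WT replicate 2, so MT-TS1 was the 1 member whose Input groups overlapped. In 40S, MT-TS1 had 35022, 35251 and 1959 TPM in KO, against 6864, 1030.1 and 141391 TPM in WT, and WT replicate 3 exceeded every KO library. In 80S it had 19214, 14891 and 2909 TPM in KO, against 15415, 1404 and 3135 TPM in WT, and in disome 408, 14909 and 2358 TPM in KO, against 344, 1089.5 and 3586 TPM in WT. The genotypes overlapped in these 3 fractions, where the log2 differences were 0.42 ± 1.81, 1.21 ± 1.81 and 1.14 ± 1.81, each smaller than its SE. The first was 2.33 ± 1.89 without WT 40S replicate 3, and the third was 2.42 ± 2.003 without KO disome replicate 1. In Polysome1, MT-TS1 had 13987, 8844 and 493 TPM in KO, against 147, 287 and 240.1 TPM in WT. In Polysome2, it had 16068, 10064 and 124 TPM in KO, against 40.3, 10.8 and 55.1 TPM in WT. The polysome groups did not overlap, and the Polysome2 difference was 6.50 ± 1.81.

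MT-TE (ENST00000387459.1), the glutamate tRNA next to ND6, had the widest spread of log2 levels over the 36 libraries (SD 3.49, n = 36). In Input, MT-TE had 13608, 3420.2 and 281 TPM in KO, against 68.4, 206 and 163 TPM in WT, without overlap, and the difference was 4.15 ± 1.94. In 40S it had 71149, 10734 and 800.3 TPM in KO, against 266, 192 and 17166 TPM in WT, where KO replicate 1 was the highest value of MT-TE in the study and WT replicate 3 stood above the 2 other KO libraries. In 80S, MT-TE had 19115, 2238 and 980.4 TPM in KO, against 961, 117 and 826 TPM in WT. In disome, it had 459.8, 13367 and 1123 TPM in KO, against 155, 58.3 and 1101 TPM in WT. The 80S groups just failed to overlap, since KO replicate 3 was next above WT replicate 1, and the disome groups crossed. In Polysome1, MT-TE had 14373, 8217 and 262 TPM in KO, against 37.6, 28.1 and 23.7 TPM in WT. In Polysome2, MT-TE had 16967, 8629 and 73.5 TPM in KO, against 20.2, 8.06 and 27.6 TPM in WT. These gave the differences of 6.70 ± 1.94 in Polysome1 and 6.97 ± 1.94 in Polysome2, the second of which was the largest of the 48 differences on the TPM scale.

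MT-TP (ENST00000387461.2), the proline tRNA at the end of the RefSeq gene order, had the smallest log2 difference between the genotypes of the 8 in Input, 80S, Polysome1 and Polysome2. In Input, MT-TP had 26519.7, 14207 and 10612 TPM in KO, against 3007, 6103 and 6608 TPM in WT. All KO values were above all WT values, by a log2 difference of 1.68 ± 0.89, and KO replicate 3 came nearer to KO replicate 2, as a ratio, than in any other member. In 40S, MT-TP had 23972, 10984 and 31643 TPM in KO, against 12448, 9136 and 14237 TPM in WT, where KO replicate 3 was the highest library and KO replicate 2 lay within the WT range. In 80S it had 4757, 2735 and 5445 TPM in KO, against 2463, 1655 and 2069 TPM in WT, and in disome 313, 6689 and 4218 TPM in KO, against 1032, 422 and 1390.3 TPM in WT. The 80S groups did not overlap and the disome groups did, because KO replicate 1 was the lowest of the 6. In Polysome1, MT-TP had 7539, 6088 and 1452 TPM in KO, against 459, 399 and 439 TPM in WT. In Polysome2, MT-TP had 8917, 8674 and 551 TPM in KO, against 193, 93.0 and 348 TPM in WT. Neither fraction overlapped, and the differences were 3.23 ± 0.89 in Polysome1 and 4.24 ± 0.89 in Polysome2. With ERCC scaling, MT-TP turned to -1.395 in Input, -2.235 in 40S, -1.04 in Polysome1 and -1.10 in Polysome2. Of these, only the Polysome1 and Polysome2 differences of MT-TP had been called on the TPM scale. The other called differences that turned below 0 were those of MT-TA, to -0.25 in Polysome1 and -0.71 in Polysome2, and MT-TN, to -0.24 in Polysome2.

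**Figure D2:**
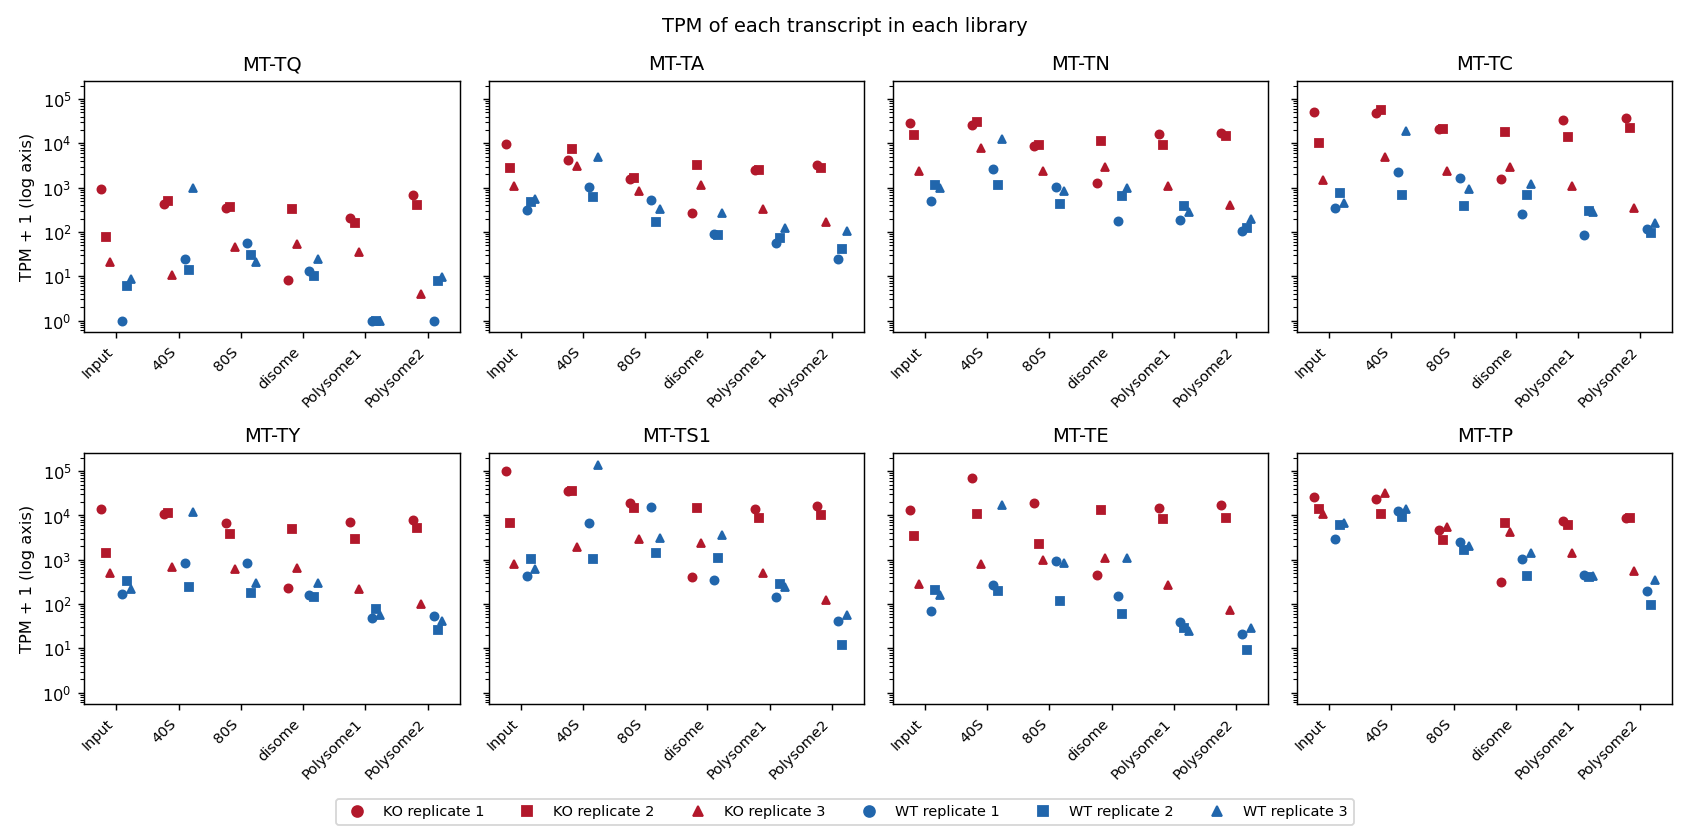
TPM + 1 (vertical log axis) of each of the 8 transcripts in every library, by fraction, with KO in red to the left of WT in blue and the symbol shape giving the replicate number; there are 3 libraries per group. MT-TQ is the lowest panel, and MT-TS1 reaches its highest value in WT 40S replicate 3. KO replicate 3 lies above all 3 WT libraries in 35 of the 48 sets of points on this TPM scale. The matching share of all transcripts was not worked out. Points at 1 are listed at 0 TPM.

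Over all 8 transcripts and 6 fractions, 48 of 48 log2 differences were above 0 on the TPM scale, against 47 of 48 with median-of-ratios scaling, 48 of 48 with quantile normalization and 24 of 48 with ERCC scaling. The limma fit across all 51052 transcripts, with Benjamini-Hochberg adjustment at 0.05, called 16 of the 48 higher in KO and none lower, and 27 had an unadjusted p under 0.05, a share that ran from 5.65% to 34.4% of all transcripts over the 6 fractions. In Input, 3 of 8 were called (MT-TQ, MT-TN and MT-TC), where 1.97% of all transcripts were called higher and 18% lower. In Polysome1, 6 of 8 were called (all but MT-TY and MT-TS1), with 1.58% of all transcripts higher and 3.84% lower. In Polysome2, 7 of 8 were called (all but MT-TQ), with 1.9% of all transcripts higher and 3.62% lower. The adjusted p of these calls ran from 0.00653 for MT-TP in Polysome2 to 0.0479 for MT-TQ in Input, and it was 0.0516 for MT-TA in Input, the nearest on the other side of the threshold.

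None of the 8 was called in 40S, 80S or disome by limma, where 1, 2 and 2 of them had an unadjusted p under 0.05, as had 5.65%, 16.8% and 21.6% of all transcripts. For 40S, 80S and disome, 0.0137%, 0.0627% and 0.0411% of all transcripts were called higher, and 0.00979%, 0.537% and 2.74% lower. For the 6 fractions from Input to Polysome2, the median log2 difference of the 8 was 3.635, 1.68, 2.64, 2.55, 4.57 and 5.22, beside medians of all transcripts of -0.51, 0, -0.17, -0.45, -0.32 and -0.22. The median of the 8 was 3.09 in 40S without WT 40S replicate 3, and 3.41 in disome without KO disome replicate 1. All 3 KO libraries lay above all 3 WT libraries for 7, 0, 5, 2, 8 and 7 of the 8 in the 6 fractions from Input to Polysome2, which is 29 of 48. The same held for 6.13%, 8.99%, 7.09%, 1.14%, 9.17% and 9.86% of all transcripts. KO replicate 3 on its own lay above all WT libraries in 35 of the 48. The share of all transcripts for which this held was not worked out, so that count cannot be set against a background. The calls leaned on single cultures: without KO replicate 3 the fit called 31 of 48, without WT replicate 3 it called 3, without KO replicate 1 it called 1, and without WT replicate 1, WT replicate 2 or KO replicate 2 it called none. The fit without KO replicate 3 also called more of all transcripts higher, at 7.07%, 1.69%, 6.11%, 1.89%, 9.12% and 9.0% for the fractions from Input to Polysome2. The other fits without 1 culture called fewer of all transcripts higher in the fractions that held calls. Their shares were 0.468% to 0.985% in Input, 0.0137% to 0.155% in Polysome1 and 0.18% to 0.452% in Polysome2, against 1.97%, 1.58% and 1.9% with all cultures. With KO replicate 3 as the lone KO culture, taken to vary like the other groups, 42 of 48 differences were above 0. The median of the 8 then ran from 0.19 in 40S to 2.295 in disome, beside -0.14 to 0.07 for all transcripts. Fitting each pair of groups alone gave no call, where 0.00979% of all transcripts were called higher in Input and 0% in every gradient fraction. ERCC scaling gave 1 call. With it, 0.0215%, 0%, 0.0921%, 0.212%, 0.476% and 0.298% of all transcripts were called higher from Input to Polysome2, and 0% to 76.2% lower. Without WT 40S replicate 3 the count on the TPM scale was 18. Of all transcripts, 1.94%, 1.43% and 1.7% were then called higher in Input, Polysome1 and Polysome2. Without KO disome replicate 1 the count was 17, and these shares were 2.55%, 2.31% and 2.54%.

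**Figure D3:**
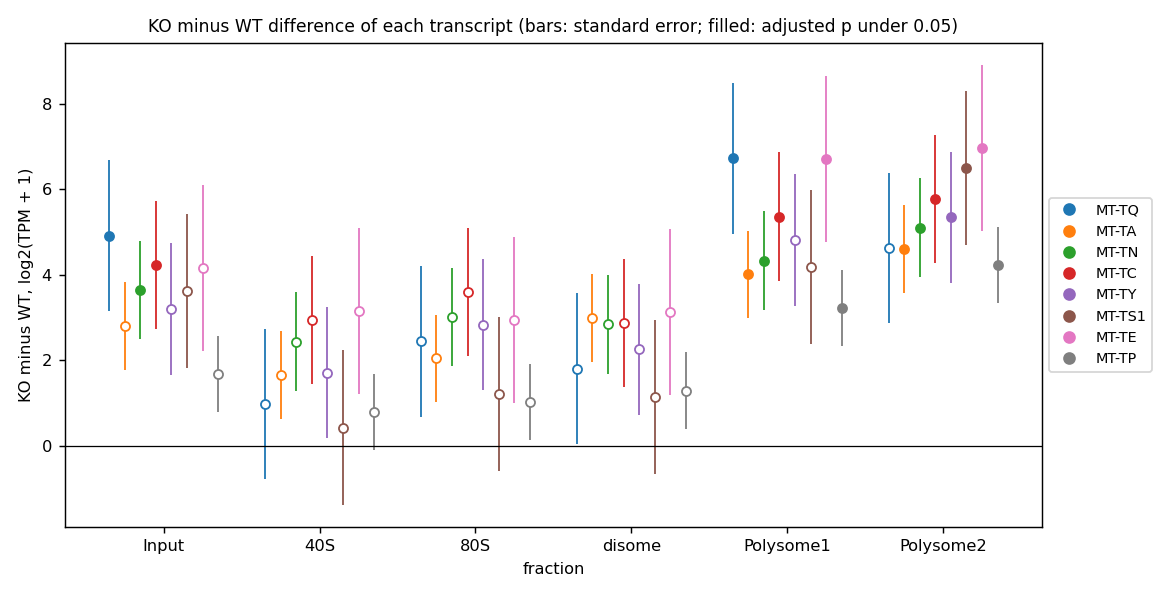
KO minus WT difference of each transcript in log2(TPM + 1) units, by fraction; points are limma estimates from 3 KO and 3 WT libraries, bars are 1 standard error, and filled points have an adjusted p under 0.05. All 48 points lie above 0 on the TPM scale (24 of 48 with ERCC scaling), and the filled ones are 3 in Input, 6 in Polysome1 and 7 in Polysome2.

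Along the gradient, the tRNA transcripts took their largest share of TPM in the 40S libraries of 5 of the 6 cultures, but scaled to the ERCC total only WT replicate 3 had its highest level there, as worked out after the data were seen. In KO the 40S sum was 0.903-fold, 3.04-fold and 2.96-fold that of Input in replicates 1, 2 and 3, against 5.46-fold, 1.30-fold and 23.3-fold in WT, and KO replicate 1 was the culture whose Input was highest. The Input sum was 2.25-fold, 0.743-fold and 9.68-fold that of Polysome2 in KO, against 8.69-fold, 25.1-fold and 10.3-fold in WT. On the TPM scale the sum was thus lower in Polysome2 than in Input in every culture but KO replicate 2, whereas with ERCC scaling the Input sum was 1.03-fold, 0.340-fold and 1.51-fold that of Polysome2 in KO, against 0.644-fold, 1.28-fold and 0.783-fold in WT. The 40S level of MT-TP was 2.69-fold, 1.27-fold and 57.4-fold its Polysome2 level in KO, against 64.4-fold, 98.3-fold and 40.9-fold in WT.

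In the fit, gradient fractions were compared with Input, and all 5 comparisons of a genotype share its 3 Input libraries. Of 40 KO differences, limma called none (4 had an unadjusted p under 0.05, as had 3.1% to 12.9% of all transcripts over the 5 fractions). Of 40 WT differences, limma called none higher and 3 lower (9 had an unadjusted p under 0.05, as had 24.2% to 50.1% of all transcripts over the 5 fractions). The calls were MT-TP in Polysome1 at -3.52 and, in Polysome2, MT-TA at -3.20 and MT-TP at -4.74, and with ERCC scaling none was called. That scaling turned the median of the 8 in WT to 1.33 in Polysome1 and 1.12 in Polysome2, against -1.94 and -2.75 on the TPM scale, while the median of all transcripts moved to 2.33 and 2.57, against -0.05 and -0.15. Without WT 40S replicate 3 the WT 40S median of the 8 was 1.10, against 2.61 with it. For WT 40S, 80S, disome, Polysome1 and Polysome2, 42.5%, 19.4%, 10.7%, 8.83% and 8.81% of all transcripts were called lower, and 0.691%, 3.09%, 4.05%, 3.18% and 3.28% higher. For the KO fractions in that order, 0.678%, 0%, 0.00196%, 0.00392% and 0.0333% were called lower, and 0.00392%, 0%, 0%, 0.00784% and 0.627% higher. The 6 libraries of a culture belong together by their labels, and with culture as a block 4 of the 8 were called higher in WT 40S, while 1, 2 and 4 were called lower in WT disome, Polysome1 and Polysome2, which makes 4 higher and 7 lower in place of 0 and 3. The block left KO with no call. The percentages of all transcripts above come from the fit without this block, and none is given for the blocked fit, so its counts have no background here. Whether the fraction difference itself differed between KO and WT was tested as an interaction, and limma called 0 of 40 (0 with an unadjusted p under 0.05), with a lowest adjusted p of 0.416. Of all transcripts, this test called 5.08%, 3.7%, 3.09%, 2.57% and 2.2% higher for 40S, 80S, disome, Polysome1 and Polysome2, and 0.094%, 0.178%, 0.509%, 0.112% and 0.106% lower. A difference in course between KO and WT thus did not pass this test for any of the 8.

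On the TPM scale, the mix of the 8 transcripts differed between libraries as well as their sum. MT-TP made up 10.9%, 26.2% and 61.6% of the sum in KO Input, against 62.3%, 60.7% and 68.9% in WT Input. KO replicate 3 thus had an MT-TP share within the WT range in Input, while MT-TS1 led KO replicate 1 with 40.9% and MT-TN led KO replicate 2 with 28.4%. Across the 6 libraries of a culture, the MT-TP share ran from 5.80% to 10.9% in KO replicate 1, from 4.88% to 26.2% in KO replicate 2 and from 27.4% to 62.1% in KO replicate 3, against 10.7% to 62.3%, 13.4% to 70.0% and 6.39% to 68.9% in WT replicates 1, 2 and 3. MT-TC had median shares of 30.0%, 29.0% and 16.9% in KO replicates 1, 2 and 3, against 8.41%, 13.9% and 12.3% in WT replicates 1, 2 and 3. MT-TE had medians of 15.4%, 9.18% and 4.70% in KO, against 3.67%, 1.93% and 5.32% in WT. By these medians, MT-TC and MT-TE took more of the sum in KO replicates 1 and 2 than in any WT culture. The MT-TP medians were 8.08%, 10.4% and 32.9% in KO, against 45.8%, 31.9% and 27.3% in WT, so MT-TP took less in KO replicates 1 and 2. MT-TS1 took 63.4% of the sum in WT 40S replicate 3, the library that stood apart, and MT-TE took 32.4% in KO 40S replicate 1.

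**Figure D4:**
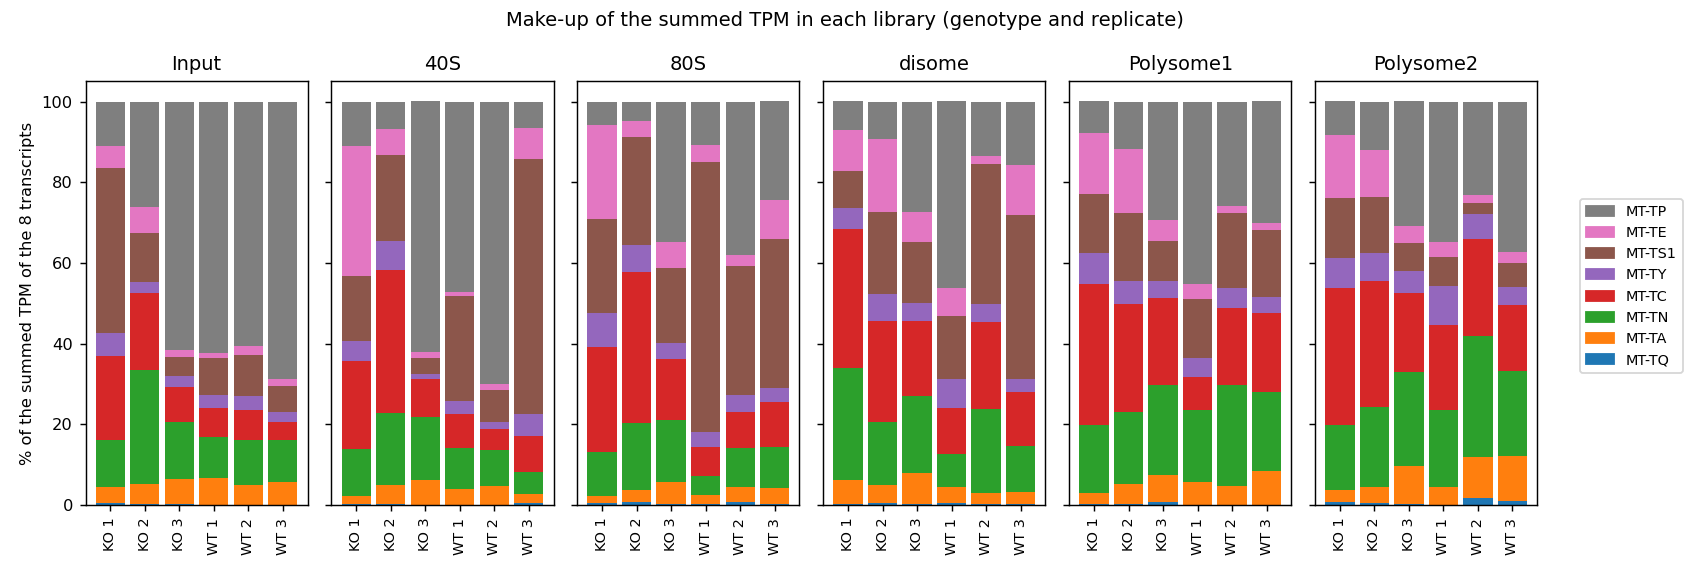
Make-up of the summed TPM of the 8 transcripts in each library as a percent of that sum (vertical axis), with 1 stacked bar per library, 1 panel per fraction, and KO replicates left of WT replicates; colours mark the transcripts. In Input, MT-TP fills 61.6% of the bar of KO replicate 3 and 60.7% to 68.9% of the WT bars, but 10.9% and 26.2% of those of KO replicates 1 and 2.

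Members moved together across libraries to differing degrees. Over the 36 libraries, which come from 6 cultures and share their scaling, the Pearson r of log2(TPM + 1) ran from 0.666 between MT-TQ and MT-TP to 0.982 between MT-TN and MT-TC. The pairs of MT-TP with MT-TE and with MT-TC had 0.759 and 0.762, next lowest after MT-TQ with MT-TP. Outside the 8, the transcripts whose level followed the members' median most closely, among those with a mean of at least 5 TPM, were ENST00000416931.1 (Pearson r 0.976, Spearman rho 0.968, mean 330.1 TPM) and ENST00000418539.2 (Pearson r 0.935, Spearman rho 0.930, mean 135.5 TPM), over 36 libraries. Neither ID is named in the tables used here.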

How the data were processed

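The deposited table held TPM values for 36 libraries, made by the authors; per the submitters' processing notes kallisto and sleuth were used with the build hg19, and their versions, the annotation and the strand setting are not given in the sources used here. TPM was not rescaled. Its total per library is fixed at 1000000, so no depth, counting interval or detection floor can be given. The table held 223367 transcript rows and 92 ERCC rows, which were set aside. The filter (1 TPM or more in 3 or more libraries) left 51052 transcripts, values were taken as log2(TPM + 1), and 12 group means were fitted to all 36 libraries with limma 3.58.1 (lmFit, eBayes with trend) under R 4.3.3; 24 residual degrees of freedom remained. P-values were adjusted by Benjamini-Hochberg within each comparison at a threshold of 0.05. The fit takes libraries of a culture as independent, so p-values for KO against WT overstate the replication of 3 cultures against 3. The fit was tested on simulated data. Differences on this scale understate changes of low transcripts.

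The members, gene lists and alternatives were chosen with earlier results of these data known, and no test here is independent of that choice. All 8 members are named, with the 2 other transcripts of highest Pearson r to the members' median among those with a mean of at least 5 TPM. The table pairs no ID with a gene, so lists of heavy-strand tRNAs, mitochondrial mRNAs and rRNAs, and cell type markers were not analysed here, and no sequence is shown. Alternatives were another pseudocount, no filter, 4 other scalings, only the groups compared, a replicate block and leaving out cultures or libraries. Python 3.11.15, numpy 2.4.6, pandas 2.3.3 and matplotlib 3.10.9 made the tables and figures.

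Groups and replicate numbers came from the labels. Libraries of a culture were taken as paired across fractions because a genotype and a number name each culture in the labels. The median correlation of their deviations from the group means was 0.496 to 0.705 in the KO cultures and 0.0459 to 0.153 in the WT cultures.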

Additional observations from a re-analysis of the deposited data

How the results depend on the processing

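For KO against WT, 16 of 48 differences were called higher on log2(TPM + 1). The count was 8 with a pseudocount of 0.1, 4 with no filter on low values and 5 with median-of-ratios scaling. It was 1 with ERCC scaling and 0 with only the groups compared. Leaving out 1 culture at a time gave 0 to 31. Quantile normalization gave 13, the replicate block, here by replicate number, 17, and leaving the members out of the TPM total 16. In Polysome2, the main fit called 1.9% of all transcripts higher. The share was 0.915% with a pseudocount of 0.1, 0.282% with no filter, 0.65% with median-of-ratios scaling and 0.298% with ERCC scaling. With only the groups compared it was 0%, with quantile normalization 0.911%, with the replicate block 3.5%, and without the members in the total 1.82%. For these 8 settings in the order just given, the Input shares were 2.06%, 0.583%, 2.71%, 0.0215%, 0.00979%, 4.1%, 2.67% and 2.25%. The main fit gave 1.97% there. The Polysome1 shares in that order were 0.306%, 0.227%, 0.239%, 0.476%, 0%, 0.67%, 3.28% and 1.35%, where the main fit gave 1.58%. KO and WT share replicate numbers, but same-numbered cultures had correlations of deviations from -0.709 to 0.107, so the numbers name and do not pair them. The block by replicate number for KO against WT thus rests on no pairing. With ERCC scaling only 24 of the 48 differences were above 0. Of those called on the TPM scale, the differences of MT-TA (-0.2472 in Polysome1, -0.7135 in Polysome2), MT-TN (-0.2365 in Polysome2) and MT-TP (-1.042 in Polysome1, -1.103 in Polysome2) fell below 0. None of the 48 was called lower with this scaling. Those of the sum fell to -0.09989, -1.496, -0.7857, -0.2437 and -0.003197 for Input, 40S, 80S, disome and Polysome2, and to 0.195 in Polysome1. No spread was worked out for the ERCC-scaled sums, so their signs are not read as a direction. ERCC totals differed between cultures, and the cause was not tested. With KO replicates 1 and 2 both left out, a choice made after seeing the data for the sum, its log2 differences from Input to Polysome2 were 1.151, 0.2619, 0.7217, 1.962, 1.919 and 1.584. For gradient fractions against Input, the 0 higher calls became 1 with a pseudocount of 0.1, 7 with median-of-ratios scaling, 1 with quantile normalization, 1 with only the groups compared, 4 with the replicate block of culture and 5 with KO replicates 1 and 2 both left out, and 0 to 4 without 1 culture. The 3 lower calls became 5 with quantile normalization, 0 with ERCC scaling (which turned the members' median in both WT polysome fractions above 0), 13 with only the groups compared, 7 with the replicate block and 8 with KO replicates 1 and 2 both left out, and 1 to 7 without 1 culture. No share of all transcripts is given for the gradient comparisons under these other settings, so those counts have no background here. Leaving out WT 40S replicate 3 or KO disome replicate 1 was added after seeing the data. Depth is unknown, and what it limits could not be measured.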
